A study of Mus musculus with 15 samples.

Results

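The genes described here are 33 mouse genes of the endoplasmic reticulum (ER) stress response and unfolded protein response. They were chosen by gene symbol from knowledge of the pathway, with earlier results of these data known, and matched to a count table of 24060 gene entries. All 33 were in the table and all 33 passed the filter on low counts, which 15460 entries passed in all. They comprise 6 stress sensors and transcription factors, 6 targets of the PERK-ATF4 branch and related stress genes, 11 ER chaperones and cofactors, 5 enzymes of disulfide bond formation, 4 genes of ER-associated degradation and Wfs1, an ER membrane protein of the beta cell.

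The measurements are RNA-seq counts from whole pancreatic islets of FVB/NJ mice aged 9 to 10 weeks, in 5 groups of 3 libraries each. The hIAPP mice carried a transgene for human islet amyloid polypeptide (IAPP), a peptide co-secreted with insulin, driven by the insulin II promoter, and the rIAPP mice carried rodent IAPP behind the same promoter. Human IAPP forms amyloid and rodent IAPP does not, so the rIAPP group overexpresses a peptide without amyloid; transgene level and founder line may differ between both groups as well. The hCAST mice carried human CAST (calpastatin, the natural inhibitor of calpain proteases) behind the insulin II promoter, the hIAPP_hCAST mice carried human IAPP together with human CAST, whose promoter is there given as insulin, and the WT mice carried no transgene. An insulin promoter confines the transgenes to beta cells in the main, whereas the RNA came from all cells of the islet preparation. The labels give no founder line, sex or transgene copy number, and they do not say whether each library is 1 mouse or a pool, so the p-values measure only the spread between these libraries, which may be technical.

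Proteins that enter the secretory pathway fold in the ER, and a load of unfolded protein there is read by the sensors PERK (Eif2ak3), IRE1 (Ern1) and ATF6. PERK slows translation and raises ATF4, which turns on genes of amino acid supply and of stress signalling; IRE1 splices the Xbp1 transcript; ATF6 and spliced XBP1 turn on chaperones, disulfide enzymes and the degradation machinery. The beta cell makes very large amounts of proinsulin, which needs disulfide bonds, and is therefore a classic cell type for the study of this response. Splicing of Xbp1, protein phosphorylation and the amount of ATF4 protein are not visible in counts per gene.

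Each library held 28287011 to 40191501 counts. In WT replicate 2, WT replicate 3 and rIAPP replicate 2, 94.3%, 68.9% and 67.7% of counts fell on 3 genes rich in ribosomal reads (Rn45s, Lars2 and Mir6236), against 0.286% to 11.8% in the other 12, and WT replicate 2 kept 1667190 other counts. The counts of calls in the comparisons that use these 3 libraries are given with and without them. Of the remaining counts, insulin (Ins1 and Ins2) took 15.8 to 16.3% in WT, 12.2 to 14.1% in hCAST, 9.9 to 11.8% in hIAPP, 8.92 to 12% in hIAPP_hCAST and 5.34 to 7.18% in rIAPP, and all 14 beta cell markers were detected in every group, as were 10 markers of alpha, delta and PP cells. Mouse Iapp stood at 37129 ± 2202 CPM (counts scaled to a common library size) in rIAPP against 23319 ± 195 in hIAPP (log2 difference of hIAPP against rIAPP -0.67 ± 0.174, adjusted p = 0.0158). In WT it stood at 30270 ± 11395, a spread set by WT replicate 2: replicates 1, 2 and 3 read 23835, 43427 and 23548.5 CPM. Reads of the human transgenes were not analysed here. In bulk RNA, fewer cells of a type and less RNA per cell cannot be told apart.

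The promoters of these genes are shown because a shared element is what the ATF6 branch reads. The windows run from 250 bases before to 50 after each gene's start in RefSeq (GRCm38.p6), and 30 of the 33 genes matched an entry, Ero1lb under its current symbol Ero1b; Atf6, Hyou1 and Manf did not. The ER stress element, spelled CCAAT, then 9 bases of any kind, then CCACG, was searched on both strands. It stood in 9 of 30 windows, which is 30% of them, against 37 of all 27025 genes with a window, which is 0.137%. The 37 include these 9. The element is best known from Hspa5, itself among the 9, so the contrast is no independent result. The 9 genes carried 10 elements, Hsp90b1 having 2, and these lay 65 to 212 bases before the gene's start, 5 of them on the gene's strand. Capitals mark the CCAAT and CCACG parts in each line, and every element is written 5′ to 3′ on the strand that carries it.

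Hspa5, chr2:34772025-34772043, + strand: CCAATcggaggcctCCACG
Hsp90b1, chr10:86705638-86705656, - strand: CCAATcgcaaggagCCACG
Hsp90b1, chr10:86705533-86705551, + strand: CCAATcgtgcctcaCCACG
Dnajc3, chr14:118937827-118937845, + strand: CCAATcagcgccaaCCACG
Calr, chr8:84847075-84847093, + strand: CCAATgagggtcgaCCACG
Canx, chr11:50325800-50325818, - strand: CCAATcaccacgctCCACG
Creld2, chr15:88819520-88819538, - strand: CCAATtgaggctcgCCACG
Pdia6, chr12:17266491-17266509, + strand: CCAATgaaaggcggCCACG
Ero1lb, chr13:12565682-12565700, - strand: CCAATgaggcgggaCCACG
Derl3, chr10:75893242-75893260, - strand: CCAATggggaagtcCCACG

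The parts held fixed by the search occur often by themselves: CCACG stood in 80% of the 30 windows and 35.5% of all, and CCAAT in 83.3% and 41.1%; both counts include the letters inside an ER stress element. TGACGTG, a core read by ATF6 and XBP1, was found in the Hspa5 window alone (3.33% of the members' windows, 2.22% of all). TTGCATCA, the core of the amino acid response element read by ATF4, was found for Chac1 and Herpud1 (6.67% and 1.03%). Of 116 further pathway genes with a window, 1 held the ER stress element, Syvn1, an E3 ligase of ER-associated degradation. A match is a description of letters, and its absence says only that these letters are not in this window.

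The whole windows follow for Hspa5, the best known carrier of the element, for Ero1lb, the gene with the largest difference in the counts described next, and for Herpud1, where the ATF4 core occurs; each is written on the gene's strand with the ER stress element, TGACGTG or TTGCATCA in capitals, and CCAAT or CCACG outside an element in lower case, so that the element of Ero1lb, which lies on the opposite strand, reads as its reverse complement.

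Hspa5, chr2:34771840-34772139, + strand: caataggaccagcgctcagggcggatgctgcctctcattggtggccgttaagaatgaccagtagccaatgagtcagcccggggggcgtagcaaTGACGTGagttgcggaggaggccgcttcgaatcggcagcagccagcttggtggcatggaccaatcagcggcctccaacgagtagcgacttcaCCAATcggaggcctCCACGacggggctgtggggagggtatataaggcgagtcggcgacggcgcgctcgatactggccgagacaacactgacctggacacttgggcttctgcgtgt
Ero1lb, chr13:12565633-12565932, + strand: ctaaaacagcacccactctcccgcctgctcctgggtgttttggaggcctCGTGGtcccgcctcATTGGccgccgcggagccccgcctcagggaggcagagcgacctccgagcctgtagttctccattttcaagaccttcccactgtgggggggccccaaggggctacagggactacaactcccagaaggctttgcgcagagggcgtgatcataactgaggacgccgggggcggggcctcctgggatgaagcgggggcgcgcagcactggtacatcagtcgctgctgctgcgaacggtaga
Herpud1, chr8:94386179-94386478, + strand: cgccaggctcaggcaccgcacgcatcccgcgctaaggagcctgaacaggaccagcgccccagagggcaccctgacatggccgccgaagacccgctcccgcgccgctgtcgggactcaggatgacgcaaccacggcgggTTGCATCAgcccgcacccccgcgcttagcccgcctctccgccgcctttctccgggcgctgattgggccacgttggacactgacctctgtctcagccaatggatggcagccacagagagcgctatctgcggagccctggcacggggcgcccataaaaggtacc

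Levels of different genes were compared per gene length, as CPM divided by gene length in kilobases (RPKM, scaled across libraries by the TMM method). Averaged over the 5 groups, the lectin chaperone Calr stood highest at 361 RPKM, followed by the disulfide isomerase P4hb at 351, the ER oxidase Ero1lb at 325 and the chaperones Hspa5 (BiP) at 304 and Hsp90b1 (GRP94) at 283. The lowest were Sesn2 at 11.2, Chac1 at 8.88, Derl3 at 7.81 and Trib3 at 2.14 RPKM. Chaperones and folding enzymes thus fill the top of the order and targets of ATF4 most of its bottom. Ero1lb changed its place between groups: it was the highest of the 33 in WT at 483 RPKM and in hCAST at 453, and stood at 114 in rIAPP, where P4hb was highest at 377. Trib3 had the fewest counts, 2 in WT replicate 2, so that its WT mean is the least certain of the set.

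**Figure D1:**
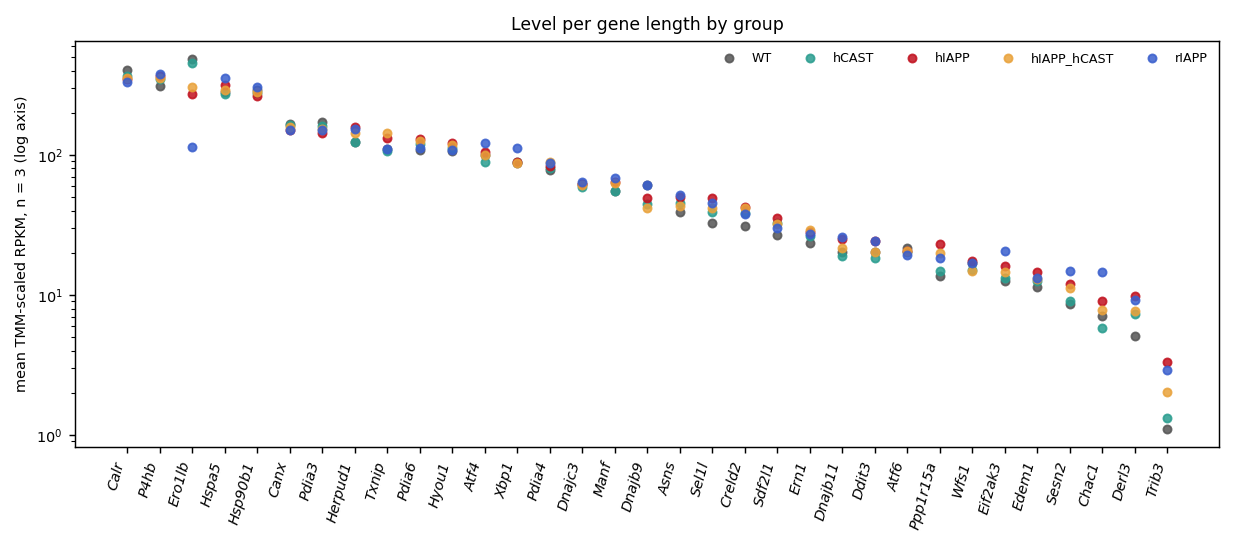
Mean level per gene length of the 33 genes in each of the 5 groups (TMM-scaled RPKM, log axis, 1 point per group, n = 3 libraries each), ordered by the mean over groups. The points of most genes lie on top of each other, while those of Ero1lb run from 114 in rIAPP to 483 in WT, and Trib3 is lowest in every group.

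The comparison of hIAPP with WT asks what the human peptide does to islet RNA. Of the 33 genes, 6 rose and 2 fell in hIAPP at a Benjamini-Hochberg adjusted p below 0.05 in edgeR's quasi-likelihood test, which is 8 of 33, where 11.9% of all 15460 genes tested were called, 6.27% higher and 5.59% lower. The genes that rose were Trib3 and Ppp1r15a of the PERK-ATF4 branch, the chaperone cofactors Sdf2l1 and Creld2, the disulfide isomerase Pdia6 and the degradation factor Edem1; the genes that fell were the disulfide enzymes Ero1lb and Pdia3. The median log2 difference was 0.24 over the 33 genes and 0.02 over all genes tested, and 26 of 33 were above 0. Of the 33, 15 were higher and 3 lower without overlap of the libraries, where 17.9% and 15.2% of all genes tested did so. None of the 6 sensors and transcription factors was called by edgeR or DESeq2, nor was the chaperone Hspa5 or Wfs1. Of the 6, 1 (Eif2ak3) had an unadjusted p below 0.05 in edgeR, as did 27.6% of all genes tested.

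In the PERK-ATF4 branch, all 6 genes had positive log2 differences and 2 passed. Ppp1r15a (GADD34), which directs the phosphatase that removes the PERK mark from eIF2 alpha, read 27.6, 35.9 and 32.1 CPM in the WT libraries and 53.2, 43.4 and 65.2 in hIAPP. Every hIAPP library was above every WT library, and the log2 difference was 0.81 ± 0.141 (± SE here and for every log2 difference that follows), with an adjusted p of 0.00265. Trib3, a pseudokinase induced through ATF4 and DDIT3, read 2.62, 0.876 and 3.32 CPM in WT and 5.08, 6.35 and 9.16 in hIAPP, again without overlap, with the largest rise of the set (1.35 ± 0.285, adjusted p = 0.00719). The value of 0.876 rests on 2 counts in WT replicate 2; without WT replicate 1 the adjusted p of Trib3 was 0.0549, and without the 3 libraries rich in ribosomal reads it was 0.0855. Sesn2, a sestrin that restrains mTORC1 signalling, stood at 31.7 ± 5.49 CPM in hIAPP against 23 ± 2.25 in WT (SD, n = 3; 0.43 ± 0.143, adjusted p = 0.061) and did not pass. Asns (asparagine synthetase) and Txnip (a binding partner of thioredoxin) had log2 differences of 0.37 and 0.25, and Chac1, which degrades glutathione, 0.24, with adjusted p-values of 0.283, 0.222 and 0.684.

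Among the sensors and transcription factors the largest log2 difference was that of Eif2ak3, at 0.32 (95% interval 0.07 to 0.57, adjusted p = 0.0843). Its libraries read 60.9, 48.2 and 60.5 CPM in WT and 61.6, 70.0 and 85.5 in hIAPP, and the lowest hIAPP library was just above the highest WT library. Atf4 was at 0.06 (interval -0.46 to 0.57) and Ddit3, which encodes the cell death factor CHOP, at 0.23 (interval -0.22 to 0.67). Ern1, Xbp1 and Atf6 were at 0.28, 0.01 and -0.07, with adjusted p-values from 0.432 to 0.974. The intervals of Atf4, Ddit3, Ern1, Xbp1 and Atf6 include 0.

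Of the 11 chaperones and cofactors, 2 rose in hIAPP. Sdf2l1, a partner of BiP, read 32.9, 24.5 and 31.5 CPM in WT and 36.2, 41.5 and 39.3 in hIAPP (0.34 ± 0.0943, adjusted p = 0.0283). Creld2, an ER stress-inducible factor with disulfide isomerase activity, read 51, 32.4 and 44.4 CPM in WT and 54.9, 58.6 and 60.3 in hIAPP (0.38 ± 0.113, adjusted p = 0.0394). In both genes WT replicate 2, the library with the fewest usable counts, gave the lowest value of all. The remaining WT libraries also stayed below the hIAPP libraries, but both genes lost their calls without WT replicate 2. With 1 of the 6 libraries left out, Sdf2l1 lost its call in 4 fits and Creld2 in 5. Of the main chaperones none was called: Hspa5 was at 826 ± 92.9 CPM in hIAPP against 742 ± 63.9 in WT (log2 difference 0.15, interval -0.11 to 0.42), Hsp90b1 at -0.15, Calr at -0.21 and its membrane-bound relative Canx at -0.15. Hyou1 (a large nucleotide exchange factor for BiP) and Dnajb11 (a BiP co-chaperone) were higher in hIAPP in every library, at 0.19 and 0.29, with adjusted p-values of 0.086 and 0.0997. Manf was at 0.20, Dnajc3 at 0.01 and Dnajb9 at -0.29.

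The 5 disulfide genes parted: Pdia6 rose, Ero1lb and Pdia3 fell, and edgeR did not call P4hb or Pdia4. Ero1lb (ERO1 beta), the oxidase that supplies disulfide bonds for proinsulin in beta cells, read 2215, 1766 and 2157 CPM in WT and 1325, 1063 and 1089 in hIAPP. The groups did not overlap, and the log2 difference was -0.82 ± 0.151, adjusted p = 0.00312, a level of 1159 ± 144 against 2046 ± 244 CPM. Pdia6, an isomerase that also tempers sensor activity, read 231, 238 and 226 CPM in WT and 264, 276 and 282 in hIAPP (0.24 ± 0.0602, adjusted p = 0.0168), a small difference with a narrow spread. Pdia3 (ERp57), which works with Calr and Canx on glycoproteins, read 416, 499.5 and 442 CPM in WT and 381, 381 and 369 in hIAPP (-0.26 ± 0.0799, adjusted p = 0.0429). P4hb, the founding protein disulfide isomerase, was higher in every hIAPP library at 0.25, with an edgeR adjusted p of 0.0574; DESeq2 called it.

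All 4 genes of ER-associated degradation had positive log2 differences, and Edem1 passed. Edem1, a lectin that hands misfolded glycoproteins to degradation, read 74.8, 64.8 and 61.5 CPM in WT and 77.7, 92.5 and 86.9 in hIAPP (0.34 ± 0.107, adjusted p = 0.0473). Sel1l, the scaffold of the HRD1 ligase, and Derl3, a derlin of the retrotranslocation channel, had larger differences of 0.61 ± 0.254 and 0.71 ± 0.314, with adjusted p-values of 0.144 and 0.159; their libraries did not overlap but spread widely. Herpud1 was at 0.35 (adjusted p = 0.167) and Wfs1, the Wolfram syndrome gene, at 0.01 (interval -0.27 to 0.29).

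DESeq2 called 12 of the 33 genes in this comparison, all 8 of edgeR's and also Sesn2, Hyou1, P4hb and Derl3. The DESeq2 adjusted p-values of these added genes were 0.0381, 0.0113, 0.00706 and 0.0394. The share of all genes that DESeq2 called is not given here. Without the 3 libraries rich in ribosomal reads, which leaves 1 WT library whose spread is assumed to be that of the other groups, 2 of the 33 genes were called: Ppp1r15a at 0.96 (adjusted p = 0.047) and Ero1lb at -0.94 (adjusted p = 0.0308). The count was 4 without WT replicate 2 and 3 without WT replicate 3, without hIAPP replicate 2 or without hIAPP replicate 3. Ppp1r15a and Ero1lb passed whichever library of the 6 was left out. Of the 11 alternative fits, 9 were on counts, and Ppp1r15a and Ero1lb passed in each of these. The totals of the deposited FPKM include the ribosomal reads, and with pseudocount 1 the median of all genes was 1.26. Ero1lb and Pdia3 stood at 1.16 and 1.70 there, and 27 of the 33 genes were called, all higher. A call on FPKM for a gene that rose, such as Ppp1r15a, therefore carries no information. Sdf2l1, Creld2 and Edem1 lost their calls in 4 fits, Pdia6 in 3 and Trib3 in 1, all of them fits on counts. Pdia3 lost its call in 7 fits, those on FPKM included.

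**Figure D2:**
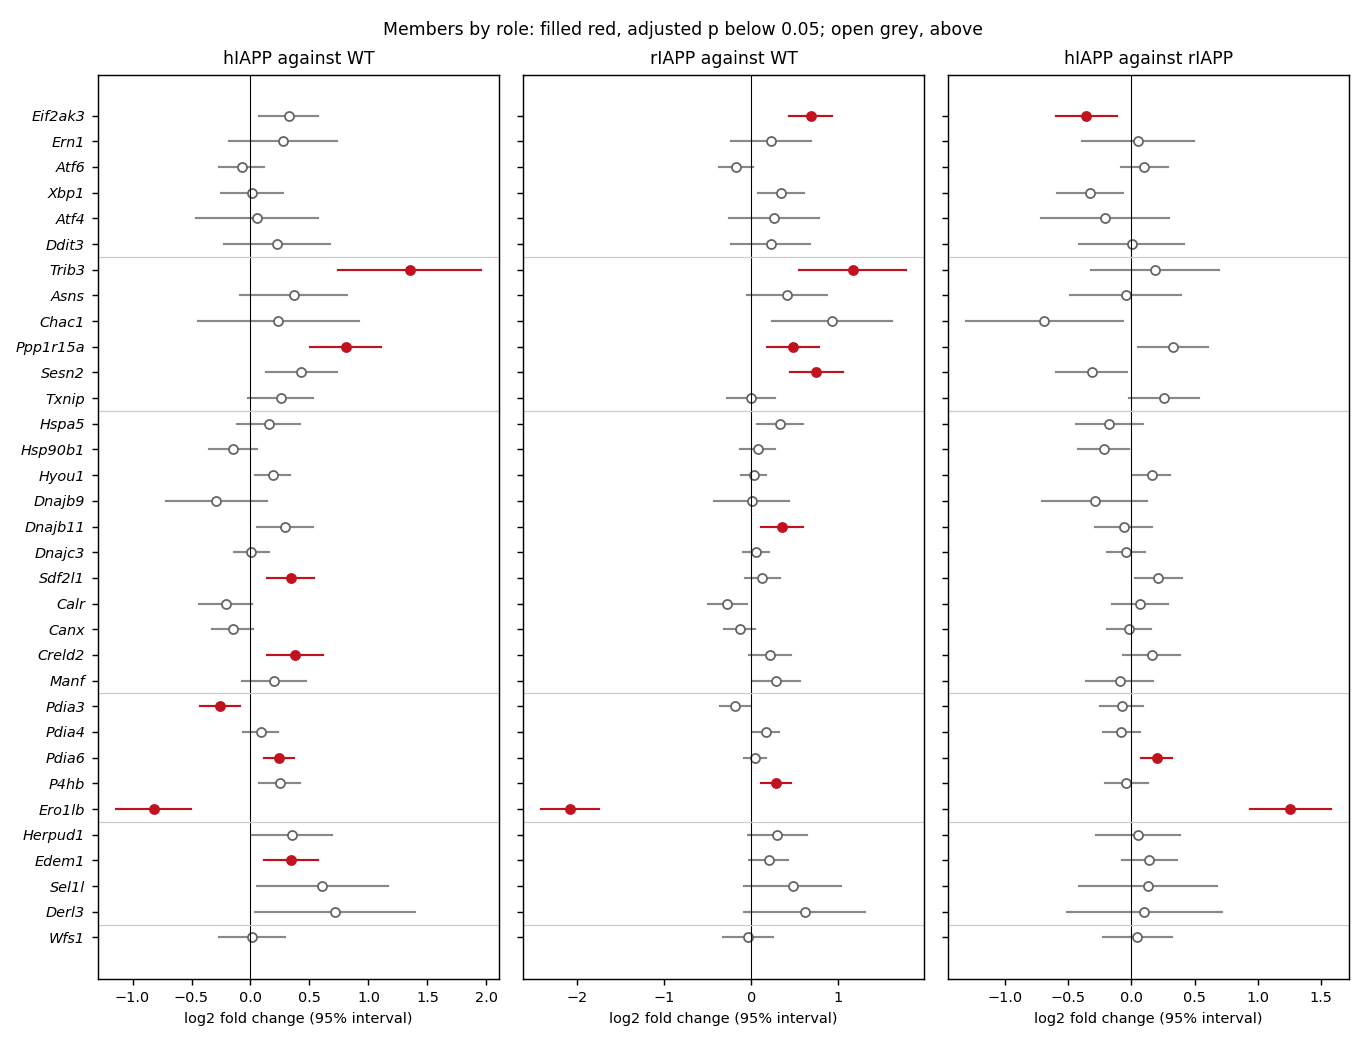
Log2 fold change of the 33 genes, in role order from sensors at the top to Wfs1 at the bottom, for hIAPP against WT, rIAPP against WT and hIAPP against rIAPP (points, with 95% intervals; filled red where the adjusted p is below 0.05; the horizontal scales differ). Most points of the left and middle panels lie right of 0, Ero1lb lies far left in both, at -0.82 and -2.08, and it lies furthest right in the right panel at 1.26.

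The comparison of rIAPP with WT measures the same genes when the peptide does not form amyloid. Here 6 of the 33 genes rose and 1 fell, which is 7 of 33, where 23.3% of all genes tested were called, 10.7% higher and 12.6% lower, so the share of these genes called was close to that of all genes. Those that rose were the sensor Eif2ak3, the stress genes Sesn2, Trib3 and Ppp1r15a, the co-chaperone Dnajb11 and the isomerase P4hb; Ero1lb fell. The median log2 difference was 0.22 over the 33 genes and 0.01 over all genes tested. Libraries did not overlap for 15 genes higher and 2 lower in rIAPP, where 21.7% and 19% of all genes tested did so. Both comparisons use the same 3 WT libraries, so their results are not independent and are set side by side as values.

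Ero1lb read 469.5, 402 and 580.3 CPM in rIAPP against 2215, 1766 and 2157 in WT, a log2 difference of -2.08 ± 0.156, adjusted p = 1.21e-07. The mean of 484 ± 90.2 CPM was below that of hIAPP, and the highest rIAPP library was below the lowest hIAPP library. This was the largest difference of the set in any comparison, and it passed without the 3 libraries rich in ribosomal reads, at -2.09 with an adjusted p of 9.22e-05, where it was the single call among the 33. In that fit, with fewer libraries, Trib3 stood at 1.24 (adjusted p = 0.0747), Sesn2 at 0.75 (0.0682), Ppp1r15a at 0.65 (0.0955) and Eif2ak3 at 0.57 (0.0743). Beside it, insulin transcripts also stood lowest in rIAPP: Ins1 was at -1.44 and Ins2 at -1.33 against WT, compared with -0.54 and -0.71 in hIAPP, and 13 of 14 beta cell markers fell in rIAPP against 10 of 14 in hIAPP. The summed share of the beta cell markers was 19.9 to 23.1% of counts in WT, 13.7 to 15.8% in hIAPP and 11.1 to 13.1% in rIAPP, and no beta cell marker was at 0. This sum includes mouse Iapp, at 37129 CPM in rIAPP against 23319 in hIAPP, which in rIAPP may hold reads of the rodent transgene. The highest WT share, 23.1%, was that of WT replicate 2, where mouse Iapp read 43427 CPM. Insulin alone took 15.8 to 16.3% in WT, 9.9 to 11.8% in hIAPP and 5.34 to 7.18% in rIAPP. The part of beta cell content in the Ero1lb difference was not tested.

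Eif2ak3 read 92.4, 96.8 and 89.1 CPM in rIAPP against 60.9, 48.2 and 60.5 in WT (0.68 ± 0.119, adjusted p = 0.000537), and all rIAPP libraries were above every other library of the series. Sesn2 read 41.1, 38.6 and 38.8 CPM in rIAPP against 23.5, 20.6 and 25 in WT (0.75 ± 0.144, adjusted p = 0.00131), likewise without overlap. Trib3 read 6.01, 5.48 and 6.47 CPM in rIAPP (1.16 ± 0.29, adjusted p = 0.00841) and Ppp1r15a 45.2, 41.7 and 41.7 (0.48 ± 0.142, adjusted p = 0.0232). Trib3 differed from WT by 1.35 in hIAPP and 1.16 in rIAPP, and Ppp1r15a by 0.81 in hIAPP and 0.48 in rIAPP. Chac1 read 25.3, 21.1 and 22.3 CPM in rIAPP against 13.2, 7.44 and 12.6 in WT, above every WT library, and missed the threshold (0.92 ± 0.316, adjusted p = 0.0524). Atf4 and Ddit3, the factors through which Trib3 is induced, were at 0.27 and 0.22 with overlapping libraries and edgeR adjusted p-values of 0.462 and 0.487.

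P4hb read 968, 989 and 912 CPM in rIAPP against 816, 739 and 799 in WT (0.28 ± 0.0808, adjusted p = 0.017), and Dnajb11 77.6, 92.1 and 82.9 against 64.6, 64.4 and 68.1 (0.35 ± 0.113, adjusted p = 0.0319). In both genes the rIAPP libraries lay above all WT libraries. Hspa5 was also higher in every rIAPP library, at 933 ± 77.5 CPM, but did not pass (0.33 ± 0.126, adjusted p = 0.0694), and the same held for Xbp1, the target of IRE1 (0.34 ± 0.125, adjusted p = 0.0589). Calr was at -0.28 (adjusted p = 0.0707). None of the 4 degradation genes was called by edgeR or DESeq2. An unadjusted p below 0.05 in edgeR was found for 0 of the 4 and for 35.6% of all genes tested. The log2 differences of the 4 were 0.20 for Edem1, 0.30 for Herpud1, 0.48 for Sel1l and 0.61 for Derl3. Sdf2l1, Creld2, Pdia6 and Pdia3, which were called in hIAPP, were at 0.13, 0.22, 0.04 and -0.18 here. DESeq2 called 11 of the 33 genes in this comparison, adding Xbp1, Chac1, Hspa5 and Calr. A fit with the rIAPP and WT libraries alone called 14. The shares of all genes called in these fits are not given here. Eif2ak3, Sesn2 and Ero1lb passed whichever library was left out, and Trib3 failed without WT replicate 1. Ppp1r15a lost its call without WT replicate 1, WT replicate 3 or rIAPP replicate 1, P4hb without rIAPP replicate 1 or 2, and Dnajb11 without any of the 6 libraries but rIAPP replicate 1.

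**Figure D3:**
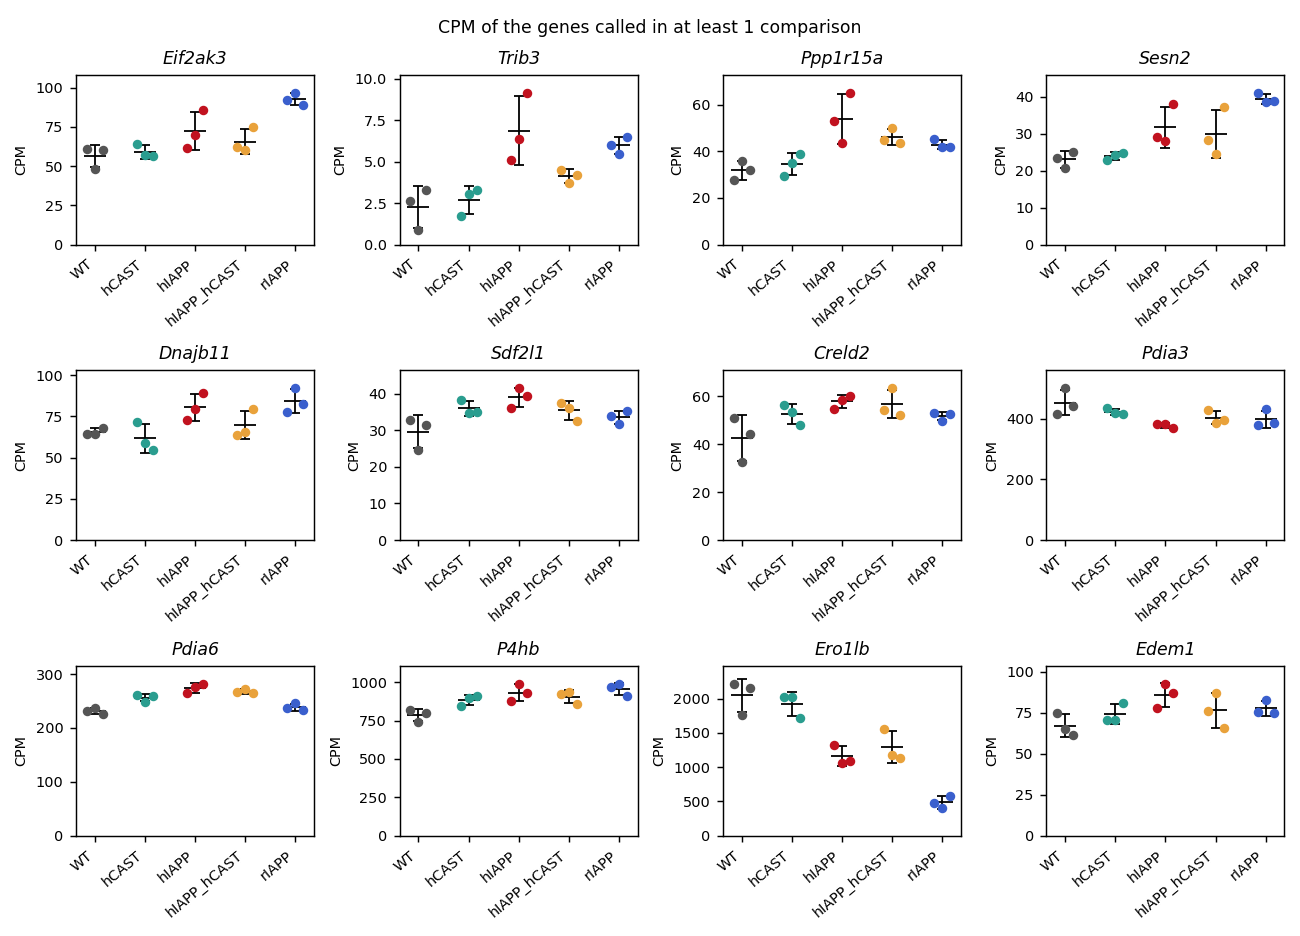
CPM of the 12 genes called in at least 1 comparison, in each of the 15 libraries (points), with the mean and SD of each group (black lines, n = 3) and vertical axes that start at 0. Ero1lb steps down from WT to hIAPP to rIAPP, at 2046 ± 244, 1159 ± 144 and 484 ± 90.2 CPM, while Eif2ak3 and Sesn2 are highest in rIAPP and Ppp1r15a in hIAPP.

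Human and rodent IAPP were then compared directly. Of the 33 genes, 3 differed, where 13% of all genes tested were called, 7.71% higher and 5.28% lower: Ero1lb and Pdia6 were higher and Eif2ak3 lower in hIAPP than in rIAPP. The difference was 1.26 ± 0.152, adjusted p = 2.77e-05 for Ero1lb, 0.20 ± 0.0595, adjusted p = 0.0344 for Pdia6 and -0.36 ± 0.113, adjusted p = 0.0472 for Eif2ak3. Pdia6 read 264, 276 and 282 CPM in hIAPP and 237, 246 and 233 in rIAPP. Eif2ak3 read 61.6, 70.0 and 85.5 CPM in hIAPP and 92.4, 96.8 and 89.1 in rIAPP, and in both genes the groups did not overlap. Trib3 did not differ past the threshold (0.19, interval -0.32 to 0.69), nor did Ppp1r15a (0.33, interval 0.05 to 0.61), Sesn2 (-0.32, interval -0.59 to -0.04), Chac1 (-0.69, interval -1.31 to -0.07) or Xbp1 (-0.33, interval -0.59 to -0.07). A p that misses the threshold does not show equal levels, and for Sesn2, Chac1 and Xbp1 all hIAPP libraries lay below all rIAPP libraries. Of the 33 genes, 5 were higher and 5 lower in hIAPP without overlap, where 19.8% and 15.7% of all genes tested did so. The median log2 difference of the 33 genes was 0.00, against 0.01 over all genes tested. Leaving out any of rIAPP replicates 1, 2 or 3 reduced the calls to 1, Ero1lb. Eif2ak3 also lost its call without hIAPP replicate 1 or 2, and Pdia6 without hIAPP replicate 2 or 3. With sample weights, limma voom raised the calls to 9; the share of all genes it called is not given here. Without the ribosomal-rich libraries, Ero1lb and Pdia6 were called and Eif2ak3 was not (-0.33, adjusted p = 0.169).

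The hCAST groups address whether inhibiting calpain changes the response. Human CAST without IAPP gave no calls against WT: 0 of the 33 genes were called by edgeR or by DESeq2. Of all genes tested, edgeR called 0.0194%. An unadjusted p below 0.05 in edgeR was found for 3 of the 33 genes and for 7.33% of all genes tested. Without the ribosomal-rich libraries edgeR also called 0 of the 33, as it did then for the interaction described with the double transgenic libraries. The 3 genes were Pdia6 at 0.15, Sdf2l1 at 0.23 and Dnajb9, a BiP co-chaperone, at -0.44, with edgeR adjusted p-values of 0.642, 0.642 and 0.678. Dnajb9 read 104, 127 and 111 CPM in WT and 100.5, 84.7 and 65 in hCAST, without overlap. In all, 3 of the 33 genes were higher and 1 lower in hCAST without overlap, where 7.59% and 6.57% of all genes tested did so. The log2 differences of Trib3, Ppp1r15a and Ero1lb in hCAST were 0.01, 0.16 and -0.09.

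On the human IAPP background, hIAPP_hCAST against hIAPP gave 0 calls among the 33 genes by edgeR and by DESeq2, where 0.466% of all genes tested were called by edgeR. Of the 33, 1 had an unadjusted p below 0.05 in edgeR, where 11.3% of all genes tested had one. It was Trib3, at -0.73 ± 0.236, adjusted p = 0.202. Its libraries read 4.49, 3.7 and 4.22 CPM in hIAPP_hCAST against 5.08, 6.35 and 9.16 in hIAPP and 2.62, 0.876 and 3.32 in WT, so that the double transgenic libraries lay between both groups without overlap. Of the 33 genes, 1 was higher and 1 lower than hIAPP without overlap, where 7.19% and 8.69% of all genes tested did so. Ppp1r15a read 44.8, 49.9 and 43.7 CPM in hIAPP_hCAST (-0.23 against hIAPP, interval -0.50 to 0.05). Ero1lb read 1559, 1170 and 1136 CPM, which overlapped hIAPP (0.15, interval -0.16 to 0.47). Of the 33 log2 differences 8 were positive, with a median of -0.08; that of all genes tested was 0.00.

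Against hCAST, the hIAPP_hCAST libraries gave 0 calls by edgeR, where 0.75% of all genes tested were called. An unadjusted p below 0.05 was found for 6 of the 33 genes and for 9.48% of all genes tested. The smallest p belonged to Ero1lb, whose hIAPP_hCAST libraries were all below the hCAST values of 2027, 2019 and 1716 CPM (-0.58 ± 0.15, adjusted p = 0.103). DESeq2 called this 1 gene (-0.58, adjusted p = 0.00977), and edgeR did so without hIAPP_hCAST replicate 1 (-0.74, adjusted p = 0.0462). Txnip was at 0.43 and Ppp1r15a at 0.42, with edgeR adjusted p-values of 0.18 and 0.194 and no overlap of libraries. Txnip read 278, 299 and 323 CPM in hCAST and 436, 426 and 352 in hIAPP_hCAST. Without overlap, 5 of the 33 genes were higher and 1 lower than hCAST, where 6.64% and 6.61% of all genes tested did so. The interaction tests whether the effect of human IAPP differs with CAST. It called 0 of the 33 genes by edgeR and by DESeq2, where 0% of all genes tested were called by edgeR. An unadjusted p below 0.05 in edgeR was found for 1 of 33, where 8.71% of all genes tested had one. That gene was Sdf2l1 (-0.37 ± 0.129, adjusted p = 0.434), followed by Pdia6 at -0.18 and Edem1 at -0.30. The interval for Trib3 was -1.54 to 0.05 and that for Ppp1r15a -0.79 to 0.02, so that with 3 libraries a group the size of any change with CAST is known only within wide bounds.

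Among 148 other genes of the pathway, 15 rose and 6 fell in hIAPP against WT, 22 rose and 16 fell in rIAPP against WT, and 12 were higher and 3 lower in hIAPP than in rIAPP. These are 14.2%, 25.7% and 10.1% of the 148, near the 11.9%, 23.3% and 13% of all genes tested. The calcium pump Atp2a2 (SERCA2), which fills the ER calcium store, fell in both IAPP groups: it read 816 ± 78.1 CPM in hIAPP and 679 ± 64.2 in rIAPP against 1424 ± 87.9 in WT (-0.80 ± 0.106, adjusted p = 0.000269 and -1.07 ± 0.106, adjusted p = 2.1e-06). It was also the 1 gene of the 148 that edgeR called in hIAPP_hCAST against hCAST (-0.70 ± 0.105, adjusted p = 0.0031). Crebrf, a regulator of the factor Creb3, fell as well, with log2 differences of -0.53 in hIAPP and -0.86 in rIAPP. Another ER calcium pump, Atp2a3 (SERCA3), fell in rIAPP (-0.88 ± 0.123, adjusted p = 7.1e-05) and was higher in hIAPP than in rIAPP by 0.69.

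In the integrated stress response, the wider programme around ATF4, 6 of 31 genes rose and 0 fell in hIAPP, where 6.27% of all genes tested rose and 5.59% fell. Gdf15, a stress-induced hormone, stood at 1.3 ± 0.227 CPM in hIAPP against 0.309 ± 0.112 in WT (2.30 ± 0.414, adjusted p = 0.00281), a low level in both. Slc7a11, the cystine transporter, was at 7.3 ± 1.62 against 2.94 ± 1.41 CPM (1.06 ± 0.251, adjusted p = 0.0136), and the secreted glycoprotein Stc2 at 7.89 ± 1.43 against 4.67 ± 0.919 (0.68 ± 0.174, adjusted p = 0.0192). Stc2 and Gdf15 were also higher in hIAPP than in rIAPP, by 1.23 and 1.02. In rIAPP against WT, 5 of the 31 rose and 2 fell, where 10.7% and 12.6% of all genes tested did so, among them the amino acid transporters Slc7a1 at 0.52 and Slc7a5 at 0.30 and the tryptophanyl-tRNA synthetase Wars at -0.36.

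Several genes of traffic, folding and degradation were also called. Kdelr3, a receptor that returns chaperones to the ER, stood at 2.47 ± 1.02 CPM in WT, 5.94 ± 1.14 in hIAPP and 12 ± 0.868 in rIAPP, and all comparisons among these groups passed, hIAPP being lower than rIAPP (-1.01 ± 0.168, adjusted p = 0.000519). Edem2, which trims mannose for degradation, rose in hIAPP (0.48 ± 0.11, adjusted p = 0.0103) and was higher there than in rIAPP (0.53 ± 0.108, adjusted p = 0.00307). Sec16b, an organizer of ER exit sites, fell in rIAPP (-0.76 ± 0.139, adjusted p = 0.00081), and the cargo receptor subunit Mcfd2 rose in both IAPP groups, at 0.47 and 0.61. Syvn1, the HRD1 ligase, rose by 0.40 in hIAPP and 0.44 in rIAPP. The prolyl isomerase Ppib rose by 0.40 and 0.47, and the FK506-binding protein Fkbp11 by 0.66 in rIAPP, while Ero1l, the other ER oxidase, fell there by 0.40 on the log2 scale.

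Values were also set beside the promoter element. The 9 genes with an ER stress element in the window, listed above by sequence, included 2 that rose and 1 that fell in hIAPP against WT (Creld2, Pdia6 and Ero1lb), with a median log2 difference of 0.01; the 21 with a window and no element had 4 that rose and 1 that fell, with a median of 0.28. In rIAPP against WT the medians were 0.05 and 0.28, with 1 gene with the element lower (Ero1lb) and 6 without it higher. Only the spelling given above was searched, so windows counted without the element may hold other forms of it. Herpud1 and Dnajb11, for example, hold CCAAT and CCACG close together in another arrangement. These are descriptions of small sets, and no test was made.

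Markers of acinar cells, the enzyme-secreting cells of the exocrine pancreas that surround islets, were uneven between libraries. Their summed share of all counts but those on the 3 ribosomal-rich genes was 8.61, 4.86 and 2.05% in the WT libraries, 5.55, 6.05 and 11.5% in hCAST, 8.85, 16.2 and 8.34% in hIAPP, 8.57, 16.8 and 1.35% in hIAPP_hCAST and 12.9, 17.2 and 13.5% in rIAPP. The rIAPP libraries were all above the WT libraries, and the hIAPP_hCAST libraries covered nearly the whole span of the series. Of 31 acinar markers tested, edgeR called 0 in hIAPP against WT, where 1 had an unadjusted p below 0.05, and 1 in rIAPP against WT, with median log2 differences of 1.07 and 1.41; 3 of the 34 acinar markers in the table were at 0 in every group. Markers of other cells passed the test: 13 of 15 macrophage markers rose in hIAPP against WT and 0 in rIAPP, where 2 fell, with summed shares of 0.0111 to 0.0166% in WT, 0.0488 to 0.0617% in hIAPP and 0.0103 to 0.0142% in rIAPP; 8 and 9 of 11 stellate and matrix cell markers rose, from 0.0595 to 0.0936% in WT to 0.161 to 0.195% and 0.171 to 0.195%; and of 10 endothelial markers 1 fell in hIAPP and 8 rose in rIAPP, from 0.0809 to 0.106% to 0.0923 to 0.104% and 0.122 to 0.131%. No macrophage, stellate or endothelial marker was at 0 in any group, and the part of these cells in the results was not tested.

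How the 33 genes followed the acinar share within groups was fitted in edgeR as a slope on its log2, a fit chosen after the values were seen. Of the 33 genes 9 had a slope past the threshold, where 8.2% of all genes tested did: 6 rose with the share (5.15% of all genes) and 3 fell (3.05%). The degradation genes were all among those that rose: Derl3 by 0.35 ± 0.0437 log2 units per doubling of the share, Sel1l by 0.30 ± 0.0333, Herpud1 by 0.16 ± 0.0381 and Edem1 by 0.12 ± 0.0241. Asns (0.24 ± 0.0317) and Ern1 (0.22 ± 0.0443) rose as well, and Atf4 (-0.21 ± 0.0595), Sesn2 (-0.13 ± 0.0358) and Wfs1 (-0.13 ± 0.0315) fell. Derl3 shows the pattern by library: it read 10.6, 14.1 and 6.04 CPM in hIAPP_hCAST at acinar shares of 8.57, 16.8 and 1.35%, and 12.5, 16 and 10.7 in hIAPP at 8.85, 16.2 and 8.34%. Sel1l read 249.8, 368 and 172 CPM and 283, 394 and 260.3 in the same libraries. Without hIAPP_hCAST replicate 3, whose share is the lowest of the series, 4 genes kept a called slope (Derl3, Sel1l, Asns and Edem1), where 1.2% of all genes tested had one. Without the ribosomal-rich libraries 9 genes had one, where 12.5% of all genes tested did; Atf4 was no longer among them and Manf joined. The slopes of Trib3 (-0.03 ± 0.092), Ppp1r15a (0.00 ± 0.0505) and Pdia6 (0.01 ± 0.0217) were not called, nor was that of Ero1lb, whose SE was 0.0583.

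**Figure D4:**
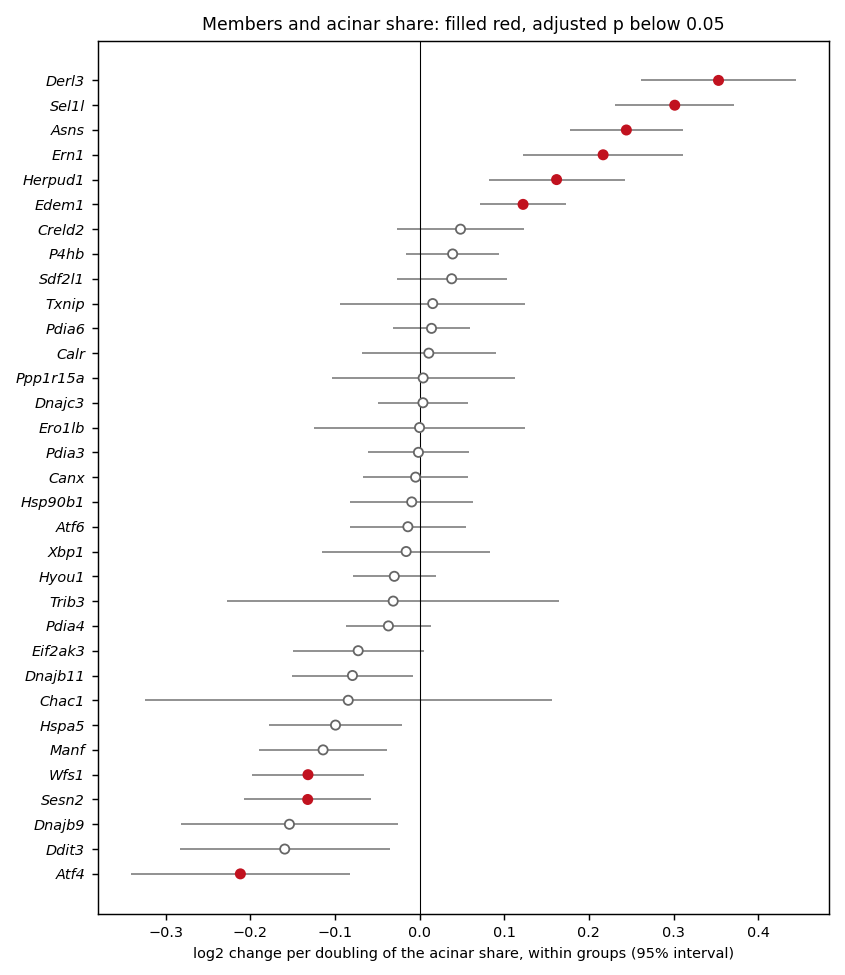
Change of each of the 33 genes per doubling of the acinar share within groups, in log2 units (points; lines are 95% intervals from the SE; filled red where the adjusted p is below 0.05; 15 libraries). Derl3, Sel1l, Asns, Ern1, Herpud1 and Edem1 lie at the positive end, and Trib3, Ppp1r15a, Pdia6 and Ero1lb lie near 0. Atf4, Ddit3, Dnajb9, Sesn2 and Wfs1 lie at the negative end, and of these Ddit3 and Dnajb9 were not called.

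With the acinar share as a covariate, 8 of the 33 genes were again called in hIAPP against WT, where the same fit called 10.6% of all genes tested, 4 of them shared with the fit without it. Trib3 at 1.37 (adjusted p = 0.0105), Ppp1r15a at 0.82 (adjusted p = 0.00609), Ero1lb at -0.82 (adjusted p = 0.00754) and Pdia6 at 0.23 (adjusted p = 0.032) kept their calls. Edem1, Sdf2l1, Creld2 and Pdia3 lost theirs, Edem1 standing at 0.19 (adjusted p = 0.109). Eif2ak3 at 0.40 (adjusted p = 0.0319), Sesn2 at 0.58 (adjusted p = 0.00415), Dnajb11 at 0.39 (adjusted p = 0.0249) and Hyou1 at 0.23 (adjusted p = 0.0434) passed in their place. In rIAPP against WT 9 were called, where 21.7% of all genes were: Atf4 at 0.64 (adjusted p = 0.0357), Hspa5 at 0.50 (adjusted p = 0.00563), Manf at 0.48 (adjusted p = 0.00653) and Pdia4 at 0.23 (adjusted p = 0.0406) joined, and Ppp1r15a at 0.49 (adjusted p = 0.0581) and P4hb at 0.22 (adjusted p = 0.0738) no longer passed. In hIAPP against rIAPP 5 were called, where 17.4% of all genes were, with Sesn2 at -0.38 (adjusted p = 0.0106) and Edem1 at 0.20 (adjusted p = 0.0441) added. The Ero1lb difference was as large with the covariate as without it in all 3 comparisons. The Ero1lb slope in this fit, -7.85e-05 ± 0.0583 log2 units per doubling of the share, left this covariate nothing to change. That value depended on hIAPP_hCAST replicate 3, without which the Ero1lb slope was -0.13 and was not called. The part of acinar content in the Ero1lb difference is therefore not settled by this fit. Beta cell content was not in the covariate fit.

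**Figure D5:**
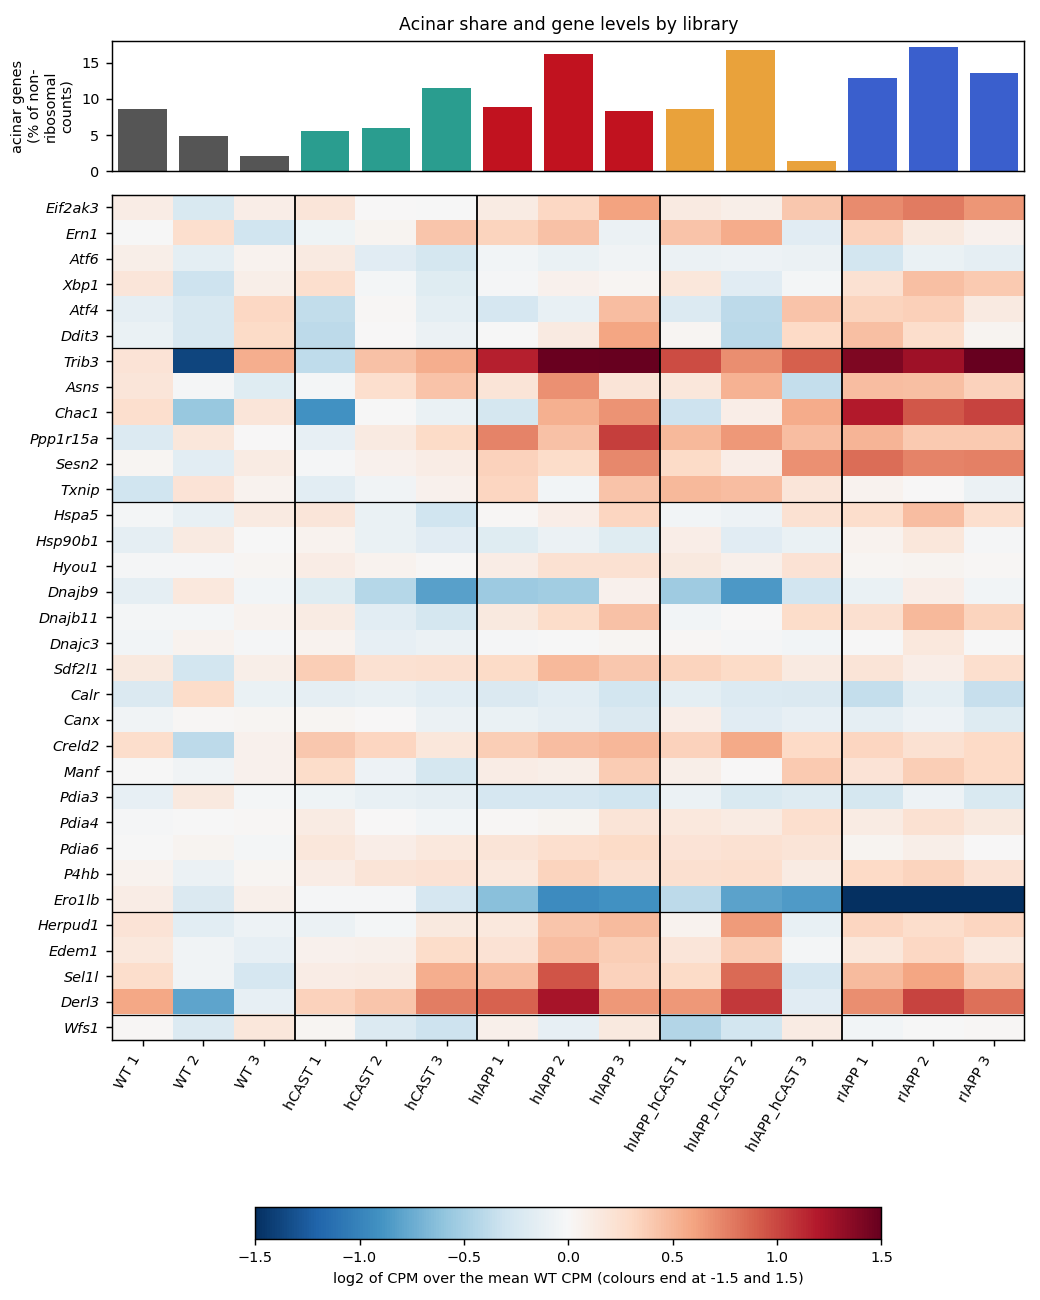
Acinar share of each library (bars, % of all counts but those on the 3 ribosomal-rich genes) above the level of each of the 33 genes in the same library (log2 of CPM over the WT mean; red above, blue below; colours end at -1.5 and 1.5; rows in role order, columns in groups of 3). Derl3 and Sel1l darken where the bars are tall, as in hIAPP replicate 2 and hIAPP_hCAST replicate 2, and the Ero1lb row is blue in all libraries with an IAPP transgene.

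In the annotation of GRCm38 the genes most often named here lie as follows: Ero1lb at chr13:12565874-12611396, Trib3 at chr2:152337422-152344032, Ppp1r15a at chr7:45522916-45526268, Eif2ak3 at chr6:70844515-70905245, Sesn2 at chr4:132492032-132510501, Pdia6 at chr12:17266545-17284770 and Edem1 at chr6:108828641-108859356; the counts cover their exons. Exons of 10 of the 33 genes overlap an exon of another annotated gene. Among the genes called, these are Ppp1r15a with Tulp2, Eif2ak3 with Gm43292, Pdia3 with Catsper2 and Pdia6 with Atp6v1c2, each on the opposite strand. The sources used here do not say whether counting used the strand, so reads of such pairs cannot be told apart and their values carry that uncertainty. Ero1lb, Trib3, Sesn2, Sdf2l1, Creld2, Dnajb11, P4hb and Edem1 have no such overlap.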

How the data were processed

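Bulk RNA-seq libraries of mouse islets, 15 in 5 groups of 3, were analysed from a table of counts per gene and a table of FPKM, both deposited by the authors for 24060 gene entries. Per the submitters' processing notes, STAR, HTSeq and the build GRCm38 (mm10) were used; versions, annotation and the strand setting of the counting are not given in the sources used here. The FPKM deposited by the authors equal the count divided by gene length and by the library's total count, and served to recover gene lengths and as an alternative.

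Counts were filtered by group (filterByExpr), scaled by TMM and fitted over all 15 libraries in edgeR 4.0.16 (R 4.3.3; quasi-likelihood, robust; common biological coefficient of variation 0.132), with 7 comparisons and Benjamini-Hochberg adjustment over the 15460 genes tested; standard errors were taken from the F statistic and 95% intervals from the t quantile at its degrees of freedom. CPM are TMM-scaled. DESeq2 1.42.0 and limma 3.58.1 gave alternatives. The fit was checked on simulated counts.

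The 33 genes, the 148 other pathway genes in 7 lists and the marker lists were chosen with earlier results of these data known. Named with full values were the 8 called genes with the smallest p in each comparison, or the 3 smallest where fewer than 3 were called, with up to 3 called genes per pathway list, Ins1, Ins2 and Iapp; other members named with values were chosen after their values were seen. A planned check of protein retention signals was not run, as no protein table was used here. No 2 libraries of the same group were duplicates, and pairs across groups were not checked.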

Additional observations from a re-analysis of the deposited data

How the results depend on the processing

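Over 11 alternative fits and 6 left-out libraries, the number of the 33 genes called moved as follows. For hIAPP against WT (8 called) it was 12 with DESeq2, 4 with only the groups compared, 2 without the ribosomal-rich libraries, 4 with hCAST in place of WT, 27 on log2(FPKM + 1) and 29 on log2(FPKM + 0.1), and 3 to 7 with 1 library left out. For rIAPP against WT (7) it was 11 with DESeq2, 14 with only the groups compared, 1 without the ribosomal-rich libraries, 1 on either FPKM scale and 5 to 7 with 1 library left out. For hIAPP against rIAPP (3), over 10 fits, it was 1 without the filter on low counts, 2 without the ribosomal-rich libraries, 9 with voom and sample weights, 5 with the acinar share as covariate, 0 on either FPKM scale and 1 to 3 with 1 library left out. For hCAST against WT (0) it was 0 without the ribosomal-rich libraries and 29 and 31 on the FPKM scales. For hIAPP_hCAST against hCAST (0) it was 1 with DESeq2 and 0 to 1 with 1 library left out. The slope on the acinar share, whose alternatives were chosen after seeing the data, had 4 genes called in place of 9 without hIAPP_hCAST replicate 3. Shares of all genes called are not set beside the counts of this paragraph. A fit that calls more or fewer genes everywhere would also move these counts.

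On log2(FPKM + 1) and log2(FPKM + 0.1) the direction turned for Pdia3 (1.70 and 1.73) and Ero1lb (1.16 and 1.18) in hIAPP against WT and for Eif2ak3 (0.17 and 0.18) in hIAPP against rIAPP. These FPKM divide by totals that hold the ribosomal reads, and the median of all genes stood at 1.26 for hIAPP against WT, 0.80 for rIAPP against WT, 0.40 for hIAPP against rIAPP and 1.26 for hCAST against WT on log2(FPKM + 1). No paired analysis was possible because the sample titles share no replicate numbers between groups, and the numbers used here follow accession order; what the differing numbers in the titles mark is not stated.

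Depth limits the WT values: WT replicate 2 kept 1667190 counts outside the ribosomal-rich genes, and Trib3 had 2 counts there. Beta cell and stellate markers were called in hIAPP and in rIAPP against WT, macrophage markers higher in hIAPP, and the acinar share was above every WT library in every rIAPP library; the part of these cells in the results cannot be told apart from the genotype, also where the acinar covariate was fitted.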

Other observations

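The 33 genes together took 1.24% to 1.45% of all counts but those on the 3 ribosomal-rich genes in each of the 15 libraries, with 1.299% to 1.45% in WT and 1.26% to 1.29% in rIAPP. Without Ero1lb the range was 1.001% to 1.13% in WT and 1.17% to 1.23% in rIAPP. Over all 7 comparisons 21 of the 33 genes were never called, 7 were called in 1 comparison, 4 in 2 and Ero1lb in 3.

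With the hCAST libraries as reference in place of WT, the rIAPP libraries gave 7 calls, among them Chac1 at 1.34 (edgeR adjusted p = 0.00546) and Hspa5 at 0.39 (adjusted p = 0.0342), which did not pass against WT. In the same way hIAPP against hCAST gave 4 calls: Trib3 at 1.34, Ppp1r15a at 0.65, Dnajb11 at 0.39 and Ero1lb at -0.73. The shares of all genes called with this reference are not given here.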
